A study of Mus musculus with 12 samples.

Results

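Goblet cells are secretory epithelial cells of the bowel that make the mucus layer, and 10 genes of their secretory program were followed in rectal RNA: the mucus proteins Muc2, Fcgbp and Zg16, the secreted peptides Tff3, Retnlb and Spink4, the folding enzyme Agr2, and the transcription factors Atoh1, Spdef and Creb3l1. The genes were chosen by symbol, and all 10 were found among the 17734 genes of the table and passed the filter on low values. RNA-seq was done on 12 male C57BL/6 mice, aged 8 to 10 weeks, which formed 4 groups of 3: normal mice, normal mice receiving berberine (BBR), colitis mice and colitis mice receiving BBR. BBR is a plant alkaloid, given by gavage at 100 mg/kg, for 6 days by the sample labels and for 7 days by the study's methods. Colitis was induced with 2.5% dextran sulfate sodium (DSS) in the drinking water for 7 days, a chemical injury of the bowel lining in otherwise intact mice. The labels describe the tissue as colorectum and the methods as rectum, and the RNA came from whole tissue, so fewer goblet cells and less RNA per goblet cell cannot be told apart.

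The mucus of the large bowel is a gel of Muc2 polymers, to which Fcgbp is bound and in which Zg16, a lectin, binds bacterial cell walls. Muc2 is folded in the endoplasmic reticulum with the help of Agr2, is decorated with O-linked sugars in the Golgi and is released together with trefoil peptides such as Tff3. Atoh1 commits crypt progenitors to the secretory lineage, and Spdef acts after it in goblet cell maturation.

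Among the 10 genes, Retnlb differed most in colitis. It was 52.5-fold higher in colitis mice than in normal mice, and Atoh1 was at 0.516 of its normal level, while the abundant products Zg16, Tff3, Muc2 and Agr2 overlapped between these groups. In colitis mice receiving BBR, Muc2 stood above both groups without colitis in each of the 3 mice. None of the 10 genes passed the adjusted limit in any comparison, so these differences are given with their intervals and with the calls at an unadjusted limit.

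The values are read as FPKM, which counts reads per length of transcript and per depth. Fold changes are on the scale of log2(FPKM + 0.1), were fitted with limma over all 12 mice, and carry 95% intervals. An adjusted p is Benjamini-Hochberg adjusted over the 15315 tested genes, with a limit of 0.05, and P is the unadjusted value of the same fit. With 3 mice in a group, the smallest exact two-sided permutation p is 0.1, reached where 2 groups do not overlap.

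The mice numbered 4 stood apart in every group, and their values are given separately where a result rests on them. Their column totals were 482194 to 504337 FPKM, against 696286 to 765876 in the 8 mice numbered 1 to 3. Steps between the low values put the depth at 16.7 to 19.6 x 1e6 reads in the mice numbered 4 and at 14.9 to 16.7 x 1e6 in the others. The same steps fitted best when 25 to 75 bases were subtracted from each transcript's length in the mice numbered 4, and 275 to 300 bases in the others. With 57.9% to 66.3% of the low values within 0.12 reads of a whole number, these are estimates. All values of the 9 genes with a read estimate, all but Muc2, were above the worth of 3 reads, and the lowest, Retnlb at 0.620 FPKM, corresponded to about 7 reads.

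A shorter subtracted length lowers the FPKM of a short transcript most, and 5 of the 10 genes have short transcripts. The shift computed from these lengths was -1.62 on the log2 scale for Spink4 (397 bases), -1.09 for Tff3 (493 bases), -0.65 for Retnlb (696 bases), -0.62 for Zg16 (723 bases) and -0.55 for Agr2 (784 bases). Tff3 in the mouse numbered 4 was below the mean of the other 2 mice by -1.93 in the normal group, -1.51 in normal mice receiving BBR, -2.51 in colitis mice and -2.92 in colitis mice receiving BBR. Zg16 showed -1.26, -1.0, -2.09 and -2.11 in the same order. Both deviations were larger than the computed shift in each group. Spink4 was at -2.25, -2.63, -0.89 and -1.53, so that its deviation was beyond the shift in mice without colitis and short of it in both groups with colitis. Agr2 was at -0.83, -0.85, 0.35 and -0.31, and Retnlb at -1.24, -3.41, -0.82 and -2.26. What set the deviations was not tested. Over 11635 genes, the mean deviation of the mice numbered 4 had a Pearson r of 0.42 with log2 transcript length, a description across genes that share the same libraries. Each group held 1 mouse numbered 4.

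**Figure D1:**
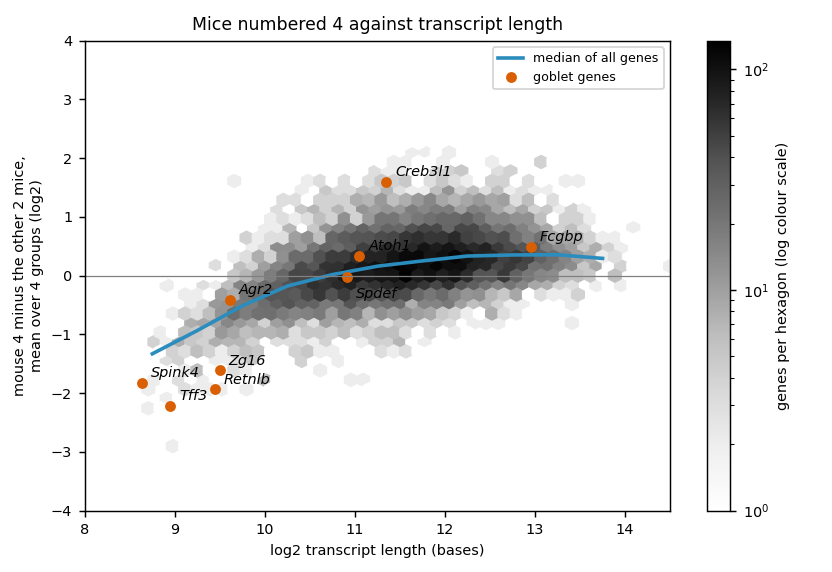
Deviation of the mice numbered 4 from the other 2 mice of their group (log2, mean over the 4 groups) against log2 transcript length, for 11635 genes (grey hexagons, shaded by number of genes) and 9 of the 10 goblet cell genes (orange). Spink4, Tff3, Zg16 and Retnlb lie at the short end and below the blue line of medians, and Creb3l1 lies above it; Muc2 is left out because its annotated transcripts are fragments.

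Muc2 codes for the gel-forming mucin of the colon. It was at 440, 415 and 581 FPKM in normal mice 1, 3 and 4 and at 420, 440 and 474 FPKM in normal mice receiving BBR 1, 3 and 4. The value was 352, 1105 and 645 FPKM in colitis mice 1, 2 and 4, and with BBR in mice 2, 3 and 4 it was 833, 1287 and 792 FPKM. The group means were, in the order normal with BBR, normal, colitis and colitis with BBR, 445 ± 27.2, 479 ± 89.6, 701 ± 380 and 971 ± 275 FPKM (SD, n = 3). The colitis mice spanned the normal mice, with colitis mouse 1 below and colitis mouse 2 far above them, whereas all 3 colitis mice receiving BBR were above all 6 mice without colitis.

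Zg16 and Tff3 were the most abundant of the 10 products, and they varied widely between mice. Zg16 was at 15823, 15809 and 6614 FPKM in normal mice 1, 3 and 4, at 13528, 11645 and 6273 FPKM in normal mice receiving BBR, at 7661, 40337 and 4138 FPKM in colitis mice and at 30318, 43992 and 8456 FPKM in colitis mice receiving BBR. Tff3, a trefoil peptide that aids the closure of epithelial wounds, was at 10158, 10983 and 2771 FPKM in normal mice, at 10572, 9340 and 3496 FPKM in normal mice receiving BBR, at 6204, 22718 and 2086 FPKM in colitis mice and at 23871, 25851 and 3278 FPKM in colitis mice receiving BBR. In both genes colitis mouse 2 and colitis mice receiving BBR 2 and 3 were the 3 highest of the 12 mice. Colitis mouse 1 was below every other mouse numbered 1 to 3 in both genes, and the mouse numbered 4 was lowest in every group.

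Together the 10 genes took 2.09% to 10.6% of the summed FPKM of a mouse, and Zg16 and Tff3 alone took 1.23% to 9.48%. The share was 8.95% in colitis mouse 2 and 7.85% and 10.6% in colitis mice receiving BBR 2 and 3. In normal mice 1 and 3 it was 4.28% and 4.42%, and in normal mice receiving BBR 1 and 3 it was 4.02% and 3.64%. Colitis mouse 1 had 2.61%, and the mice numbered 4 had 2.09% to 3.20%.

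**Figure D2:**
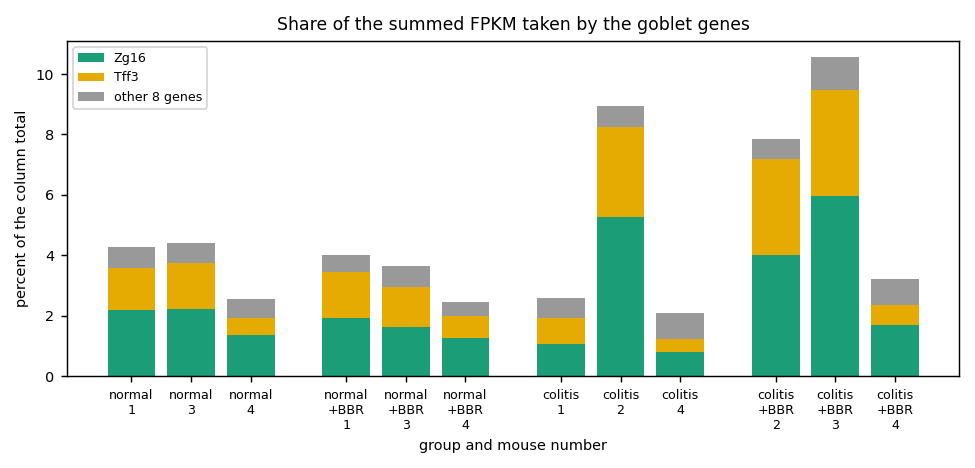
Percent of the summed FPKM of each mouse taken by Zg16 (green), Tff3 (yellow) and the other 8 goblet cell genes (grey). The stacked bars reach 8.95% in colitis mouse 2 and 7.85% and 10.6% in colitis mice receiving BBR 2 and 3, and at most 4.42% in the other 9 mice.

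Fcgbp, a large protein bound to the Muc2 gel, ranged from 304 to 831 FPKM over the 12 mice. It was at 498, 400 and 733 FPKM in normal mice 1, 3 and 4, at 388, 510 and 599 FPKM in normal mice receiving BBR, at 304, 550 and 521 FPKM in colitis mice and at 554, 658 and 831 FPKM in colitis mice receiving BBR. Each colitis mouse receiving BBR was above each colitis mouse, but the lowest of them, at 554 FPKM, was only just above the highest colitis mouse.

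Retnlb codes for a peptide of the resistin family that goblet cells secrete and that acts on bacteria. It was at 8.65, 2.2 and 1.80 FPKM in normal mice 1, 3 and 4 and at 2.31, 24.3 and 0.620 FPKM in normal mice receiving BBR. The value was 156, 292 and 121 FPKM in colitis mice 1, 2 and 4, and with BBR in mice 2, 3 and 4 it was 16.1, 258 and 13.4 FPKM. All 3 colitis mice were far above all 6 mice without colitis, and among colitis mice receiving BBR mouse 3 stood within the range of the colitis mice while mice 2 and 4 were below it. Spink4, a small secreted protein with a serine protease inhibitor domain, was at 2295, 1945 and 444 FPKM in normal mice, at 1531, 2220 and 298 FPKM in normal mice receiving BBR, at 2536, 2453 and 1348 FPKM in colitis mice and at 2181, 3757 and 993 FPKM in colitis mice receiving BBR. Its groups overlapped throughout, and the mouse numbered 4 was the lowest in each.

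Agr2, a disulfide isomerase of the endoplasmic reticulum that mucin folding needs, was at 1724, 1881 and 1011 FPKM in normal mice 1, 3 and 4, at 1443, 1487 and 810 FPKM in normal mice receiving BBR, at 1381, 993 and 1491 FPKM in colitis mice and at 1325, 2005 and 1316 FPKM in colitis mice receiving BBR. The 4 group means lay between 1247 and 1548 FPKM, and every pair of groups overlapped.

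The 3 transcription factors were below Muc2 in FPKM in every mouse. Atoh1 was at 28.6, 31.2 and 34.4 FPKM in the normal group and at 33.4, 31.2 and 29.9 FPKM in normal mice receiving BBR, a narrow range. It was at 9.88, 20.5 and 20.6 FPKM in colitis mice, all below the 6 mice without colitis, and at 20.9, 19.5 and 33.4 FPKM in colitis mice receiving BBR, where mice 2 and 3 were at the colitis level and mouse 4 at the normal level. Spdef was at 18.1, 19.2 and 16.4 FPKM in normal mice, at 21.9, 22.1 and 19.2 FPKM in normal mice receiving BBR, at 12.2, 25.8 and 32.3 FPKM in colitis mice and at 18.7, 41.8 and 19.2 FPKM in colitis mice receiving BBR. Both groups with colitis varied more widely in Spdef than those without, at an SD of 10.3 and 13.2 FPKM against 1.41 and 1.64 FPKM.

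Creb3l1, a factor anchored in the endoplasmic reticulum, split by mouse number in colitis. It was at 68.2, 60.4 and 93.5 FPKM in normal mice 1, 3 and 4 and at 46.6, 67.1 and 54.8 FPKM in normal mice receiving BBR. In colitis it was at 21.6, 12.8 and 130 FPKM in mice 1, 2 and 4, and with BBR at 16.4, 15.7 and 124 FPKM in mice 2, 3 and 4. The 4 colitis mice numbered 1 to 3 were thus below every mouse without colitis, and the 2 colitis mice numbered 4 above every one.

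**Figure D3:**
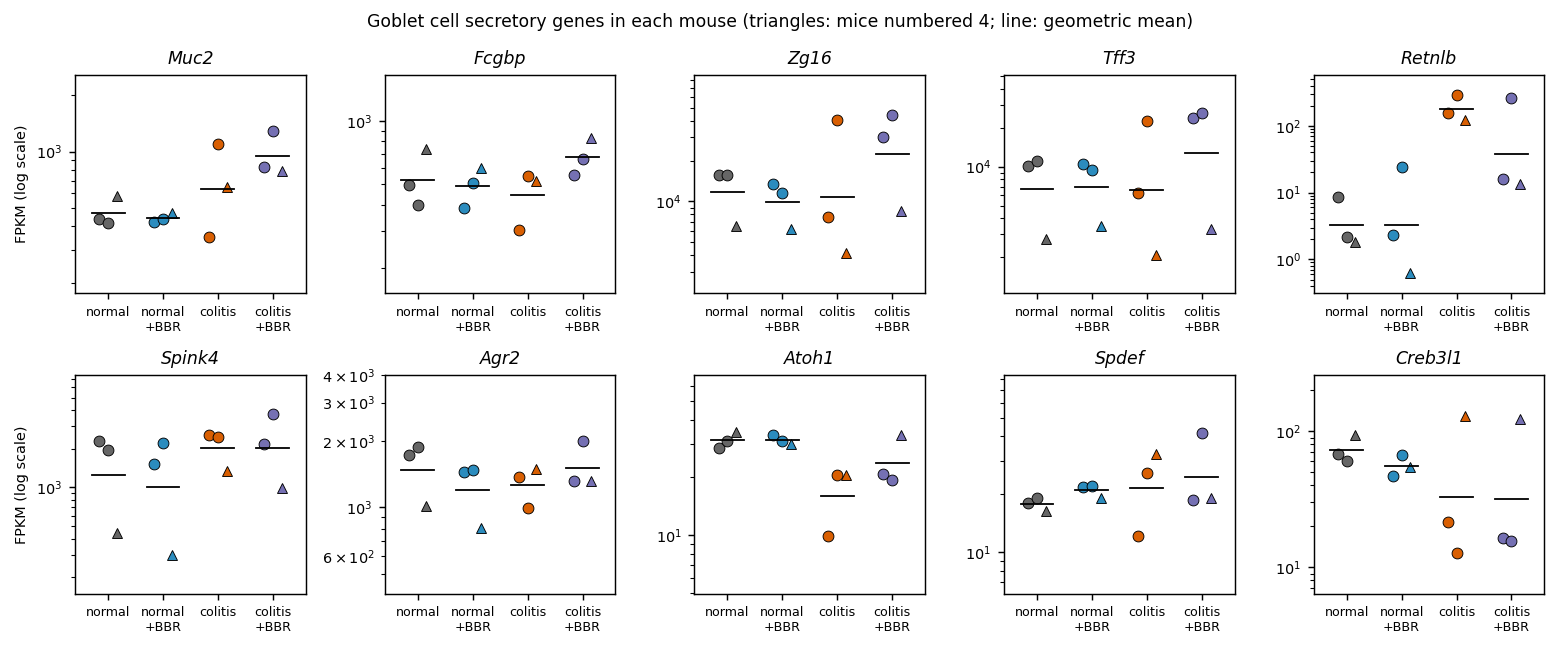
FPKM (log scale) of the 10 goblet cell genes in each of the 12 mice, by group. Circles are mice numbered 1 to 3, triangles are mice numbered 4, and bars are geometric means of 3 mice; Retnlb is higher and Atoh1 lower in all 3 colitis mice than in normal mice, and Creb3l1 is low in the colitis circles and high in the triangles.

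Compared with normal mice, colitis mice had more Retnlb, by a log2 fold change of 5.71 (SE 1.28, interval 2.91 to 8.51, limma adjusted p = 0.0577). Atoh1 was lower, by -0.95 (SE 0.29, interval -1.58 to -0.32, limma adjusted p = 0.110), and by -0.60 without colitis mouse 1, the lowest. These were the 2 of 10 genes with P of at most 0.05, 1 in each direction, where 21.4% of all tested genes had such a P, 5.56% higher and 15.9% lower. At the adjusted limit 0 of 10 were called, against 1.08% of all genes. They were also the 2 genes whose groups did not overlap, against 7.10% of all genes not overlapping and higher and 22.2% lower.

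With a block for the mice numbered 4, which compares within these mice and within the others, both genes passed the adjusted limit of limma in this comparison, Retnlb at an adjusted p = 0.0176 and Atoh1 at an adjusted p = 0.0452, where 9.22% of all genes did. In the 8 mice numbered 1 to 3 alone Retnlb differed by 5.57 (adjusted p = 0.0689) and Atoh1 by -1.06 (adjusted p = 0.0813), and between the mice numbered 4 by 6.00 and -0.74. The Retnlb call also turned on mice of other groups, through the shared spread. Its adjusted p was 0.0148 without colitis mouse receiving BBR 3, 0.0291 without colitis mouse receiving BBR 4 and 0.0448 without normal mouse receiving BBR 3, and up to 0.179 without any other mouse.

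Creb3l1 was at -1.14 in colitis over all mice, with an interval from -2.99 to 0.71 (limma adjusted p = 0.421). In the mice numbered 1 to 3 alone the difference was -1.94 (SE 0.29, limma adjusted p = 0.0312, called for 5.25% of all genes), and between the mice numbered 4 it was 0.48 in the opposite direction. Without colitis mouse 4 it was -2.12 and past the unadjusted limit (limma adjusted p = 0.101). Muc2 differed by 0.41 (interval -0.44 to 1.27), Spink4 by 0.69 (-1.13 to 2.52), Spdef by 0.28 (-0.51 to 1.07), Agr2 by -0.23 (-1.12 to 0.67) and Fcgbp by -0.25 (-0.98 to 0.49). The intervals of Zg16, from -2.61 to 2.36, and of Tff3, from -2.53 to 2.48, left changes of several fold in both directions undetectable with these mice. Without colitis mouse 1, Muc2 passed the unadjusted limit, at 0.83 (limma adjusted p = 0.313), and without colitis mouse 2 its difference was 0.01. With the mouse number as a block, Spink4 passed that limit, at 0.98 (limma adjusted p = 0.130). The median over the 10 genes was -0.07, and that over all tested genes -0.32.

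The makeup of the tissue also differed between these groups, and the counts of markers stand beside 5.56% of all genes higher and 15.9% lower with P of at most 0.05. All 10 smooth muscle markers had a negative difference in colitis mice, 9 of them with P of at most 0.05, and their summed level was 108 to 831 FPKM against 2028 to 3682 FPKM in normal mice. All 8 granulocyte markers had a positive difference, 7 of them with P of at most 0.05, at a sum of 603 to 4186 against 263 to 708 FPKM. Most of this sum was Ly6g, at 320, 707 and 259 FPKM in normal mice 1, 3 and 4 and at 1406, 3710 and 557 FPKM in colitis mice 1, 2 and 4. S100a8, which neutrophils hold in their cytoplasm, was listed at 0 in all 6 mice without colitis and was at 336, 290 and 24.9 FPKM in colitis mice. All 7 macrophage markers had a positive difference, 4 of them with P of at most 0.05, and all 6 plasma and B cell markers a negative one, 3 of them with P of at most 0.05. The 8 markers of enteroendocrine cells, another secretory cell of the epithelium, all had a positive difference, 2 of them with P of at most 0.05, at a median of 1.37 and a sum of 744 to 5827 against 511 to 1002 FPKM. As a check of the tissue, the 12 epithelium markers summed to 13354 to 19146 FPKM in colitis mice and 13039 to 18516 FPKM in normal mice, with a median difference of 0.02 and none past either limit. No marker of these 6 lists was at 0 in all mice, and their part in the goblet cell results was not tested. With each mouse centred on its epithelium markers, Retnlb differed by 5.66 (limma adjusted p = 0.0360) and Atoh1 by -1.01 (adjusted p = 0.213).

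Between colitis mice with and without BBR, 0 of 10 genes had P of at most 0.05, against 6.39% of all tested genes, and 0 passed the adjusted limit of limma, against 0% of all genes. The smallest P was that of Atoh1, which was higher by 0.57 (SE 0.29, interval -0.06 to 1.2, limma adjusted p = 0.843). Fcgbp was higher by 0.60 (SE 0.34, interval -0.14 to 1.34, limma adjusted p = 0.902) and was the 1 of 10 genes whose groups did not overlap, against 1.42% of all genes not overlapping and higher. With a block for the mice numbered 4, it passed the unadjusted limit, with a limma adjusted p = 0.445. Retnlb was lower by -2.2 (SE 1.28, interval -5.0 to 0.6, limma adjusted p = 0.915). Its difference depended on colitis mouse receiving BBR 3, without which it was -3.58 and past the unadjusted limit (limma adjusted p = 0.241). Without colitis mouse receiving BBR 4 it was -1.45. With the mouse number as a block, Retnlb was at -2.74 and past the unadjusted limit (limma adjusted p = 0.371).

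Muc2 was at 0.59 (interval -0.27 to 1.44), Zg16 at 1.05 (-1.44 to 3.53) and Tff3 at 0.93 (-1.58 to 3.44) in this comparison. With any 1 mouse left out, Zg16 ranged from 0.35 to 1.99 and Tff3 from 0.09 to 1.9, lowest without colitis mouse 4. Quantile normalization gave 0.34 for both, but it sets a value by rank alone, and Zg16 ranked 2 or 3 in every mouse. Such a value cannot show how far a top-ranked gene differs. Colitis mouse 2 was as high in these genes as colitis mice receiving BBR, and without it 2 genes passed the unadjusted limit, Muc2 at 0.99 (limma adjusted p = 0.797) and Atoh1 at 0.74 (limma adjusted p = 0.823). Without colitis mouse 1 the difference of Muc2 was 0.16 and that of Fcgbp 0.33. That of Atoh1 was then 0.22, its smallest value with any mouse left out. Atoh1 also had P of at most 0.05 without colitis mouse 4, at 0.74 (limma adjusted p = 0.790), and without colitis mouse receiving BBR 3, at 0.71 (limma adjusted p = 0.455). Agr2 was at 0.26, Spdef at 0.19, Spink4 at -0.01 and Creb3l1 at -0.06, each with 0 inside its interval. The median over the 10 genes was 0.41, and that over all tested genes -0.09. All 7 macrophage and all 8 granulocyte markers had a negative difference with BBR, 4 and 2 of them with P of at most 0.05, where 5.20% of all genes were lower. The macrophage sum was 116 to 242 FPKM with BBR against 215 to 668 FPKM without. The granulocyte sum was 491 to 2949 against 603 to 4186 FPKM, with a higher median with BBR (2082 against 1895 FPKM). Most of the granulocyte sum was Ly6g, at 1873, 2749 and 488 FPKM with BBR in mice 2, 3 and 4. Ly6g was at 259 FPKM or more in mice without colitis as well, so the sum does not measure granulocytes alone. All 10 smooth muscle markers had a positive difference, 0 of them with P of at most 0.05, and their sum was 3975 FPKM in colitis mouse receiving BBR 4 but 584 and 624 FPKM in the other 2, within the range of the colitis mice. S100a8 was at 0.310 FPKM in colitis mouse receiving BBR 4, which also had the highest Atoh1 of its group, and at 118 and 148 FPKM in mice 2 and 3. Without BBR, S100a8 was at 336, 290 and 24.9 FPKM in colitis mice 1, 2 and 4. The part of these cells in the values was not tested.

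In mice without colitis, BBR left the 10 genes with 0 calls, against 1.36% of all tested genes with P of at most 0.05 and 0% past the adjusted limit of limma. The differences ran from -0.39 for Creb3l1 (interval -2.24 to 1.46) to 0.23 for Spdef (-0.56 to 1.03). Muc2 differed by -0.09 (-0.94 to 0.76), Fcgbp by -0.10 (-0.84 to 0.64), Atoh1 by 0.01 (-0.62 to 0.64) and Agr2 by -0.31 (-1.2 to 0.59). None of these 4 intervals reached below -1.2 or above 0.76. Zg16 at -0.25, Tff3 and Retnlb at 0.05 and Spink4 at -0.32 had intervals wider than 3 log2 units, and each took both signs with 1 mouse left out, Zg16 from -0.67 to 0.09, Tff3 from -0.59 to 0.56, Retnlb from -1.35 to 1.19 and Spink4 from -1.07 to 0.55. Spdef and Creb3l1 reached exact permutation p-values of 0.2, and all groups overlapped. The median over the 10 genes was -0.10 and that over all genes -0.02.

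Among mice receiving BBR, those with colitis had more Muc2 than those without, by 1.09 (SE 0.39, interval 0.24 to 1.94, limma adjusted p = 0.219), and more Retnlb, by 3.46 (SE 1.28, interval 0.66 to 6.26, limma adjusted p = 0.221). These 2 of 10 genes had P of at most 0.05, against 19.7% of all tested genes and 2.37% of all genes in the higher direction, and 0 passed the adjusted limit, against 0.0392%. Muc2 did not overlap between these groups, as held for 2.26% of all genes in that direction, while Retnlb overlapped through normal mouse receiving BBR 3. Without colitis mouse receiving BBR 3 neither had P of at most 0.05, with Muc2 at 0.87 (limma adjusted p = 0.532) and Retnlb at 2.09 (limma adjusted p = 0.539). Retnlb also had P above 0.05 in the mice numbered 1 to 3 alone, at 3.08 (limma adjusted p = 0.176), without normal mouse receiving BBR 1, at 3.20 (limma adjusted p = 0.326), and without normal mouse receiving BBR 4, at 2.33 (limma adjusted p = 0.373). Tissue markers differed here too. All 10 smooth muscle markers had a negative difference, 5 with P of at most 0.05, where 19.7% of all genes had such a P in either direction. All 8 granulocyte and all 8 enteroendocrine markers had a positive difference, 3 of each with such a P, against 2.37% of all genes. Of 6 plasma and B cell markers, 3 were lower with such a P. Their part in the values was not tested.

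The other 8 genes of this comparison had P above 0.05, with Zg16 at 1.17, Spink4 at 1.00, Tff3 at 0.85, Fcgbp at 0.45, Agr2 at 0.34, Spdef at 0.23, Atoh1 at -0.40 and Creb3l1 at -0.81. Quantile normalization took Zg16 to 0.0 and Tff3 to -0.07, but it sets a value by rank alone. Zg16 ranked 2 in every mouse of this comparison, so its 0.0 was fixed by that rank and shows no lack of a difference. Spink4 passed the unadjusted limit of limma with a block for the mice numbered 4. Creb3l1 was again lower in the mice numbered 1 to 3 alone, by -1.80 (SE 0.29, limma adjusted p = 0.0297, called for 15.0% of all genes), and differed by 1.17 between the mice numbered 4. Without colitis mouse receiving BBR 4, 2 more genes passed the unadjusted limit, Creb3l1 at -1.79 (limma adjusted p = 0.0969) and Atoh1 at -0.64 (limma adjusted p = 0.129).

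Set against normal mice without BBR, colitis mice receiving BBR had more Muc2, by 1.00 (SE 0.39, interval 0.15 to 1.85, limma adjusted p = 0.226), and more Retnlb, by 3.51 (SE 1.28, interval 0.71 to 6.31, limma adjusted p = 0.223). In this comparison 20.1% of all genes had P of at most 0.05, 1.84% in the higher direction, and 0.0196% passed the adjusted limit, as 0 of 10 goblet cell genes did. Neither gene overlapped between these groups, against 1.95% of all genes not overlapping and higher. Without colitis mouse receiving BBR 3 neither had P of at most 0.05, and they differed by 0.78 (limma adjusted p = 0.540) and 2.14 (limma adjusted p = 0.540). Muc2 had P above 0.05 also without normal mouse 1 (0.95, limma adjusted p = 0.436) or 3 (0.90, limma adjusted p = 0.345) and with the mouse number as a block (0.73, limma adjusted p = 0.253), and Retnlb without normal mouse 3 (3.24, limma adjusted p = 0.343) or 4 (3.10, limma adjusted p = 0.369). Creb3l1 in the mice numbered 1 to 3 alone was lower by -2.0 (limma adjusted p = 0.0243, called for 14.1% of all genes), against 0.40 between the mice numbered 4 and -2.18 (limma adjusted p = 0.0544) without colitis mouse receiving BBR 4. Atoh1 differed by -0.39 (interval -1.02 to 0.24), and passed no limit against either normal or colitis mice. Tissue markers differed as well. With P of at most 0.05, 5 of 8 granulocyte and 3 of 8 enteroendocrine markers were higher, against 1.84% of all genes. Of 6 plasma and B cell markers 3 were lower with such a P, where 20.1% of all genes had one in either direction. All 10 smooth muscle markers had a negative difference, 0 of them with such a P. The part of these cells was not tested. This comparison shares its mice with the comparisons above.

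The difference between the BBR effect in colitis mice and that in normal mice was tested as an interaction, which called 0 of 10 genes at P of at most 0.05, against 2.42% of all genes, and 0 at the adjusted limit, against 0%. The interaction was -2.25 for Retnlb (interval -6.21 to 1.71), 0.70 for Fcgbp (-0.34 to 1.74), 0.68 for Muc2 (-0.53 to 1.88) and 0.56 for Atoh1 (-0.33 to 1.45), each with a limma adjusted p = 1.00. The unadjusted limit was passed by Muc2 at 1.08 without colitis mouse 2 (limma adjusted p = 1.00) and by Retnlb at -3.63 without colitis mouse receiving BBR 3 (limma adjusted p = 0.808). The smallest interactions with 1 mouse left out were 0.26 for Muc2, without colitis mouse 1, and -0.85 for Retnlb, without normal mouse receiving BBR 3.

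**Figure D4:**
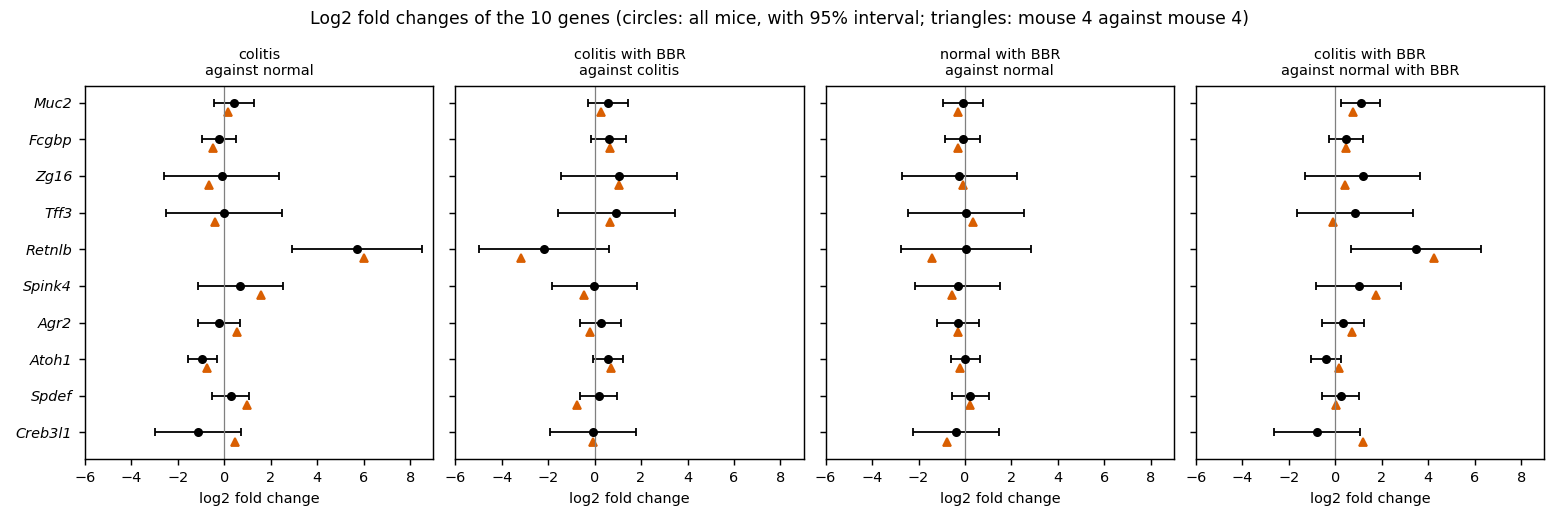
Log2 fold changes of the 10 goblet cell genes in 4 comparisons. Circles are limma estimates over all mice with 95% intervals, and triangles are the difference between the mice numbered 4; the intervals exclude 0 for Retnlb and Atoh1 in colitis against normal and for Muc2 and Retnlb in colitis with BBR against normal with BBR.

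The 10 genes did not vary as 1 block. Over the 8 mice numbered 1 to 3, Muc2 had a Pearson r on the log2 scale of 0.96 with Zg16, 0.95 with Tff3, 0.83 with Fcgbp and 0.77 with Spdef, 0.62 with Spink4 and 0.60 with Retnlb. With Creb3l1 it was -0.77, and with Agr2 and Atoh1 -0.17 and -0.13. Over all 12 mice the values were 0.59 for Zg16, 0.39 for Tff3, 0.23 for Spink4 and -0.42 for Creb3l1. These are descriptions of mice from 4 groups that share group differences and libraries. The ratio of Zg16 to Muc2 was 21.8 to 38.1 in the mice numbered 1 to 3 and 6.41 to 13.2 in the mice numbered 4, and that of Tff3 to Zg16 was 0.563 to 0.810 and 0.388 to 0.557.

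Outside the 10 genes, those whose pattern was most like that of Muc2 over the 12 mice, among 11933 genes with a mean of at least 1 FPKM, were Sowahb (Pearson r 0.87), Ffar4 (0.85), C3 (0.85), Ttyh1 (0.82) and Avpr1b (0.82). Ffar4, a receptor for long-chain fatty acids, was at 11 to 19.9 FPKM in the 6 mice without colitis and at 42.6 and 55.8 FPKM in colitis mouse 2 and colitis mouse receiving BBR 3. C3, the central complement component, was at 81.5 and 89.1 FPKM in these same mice, the 2 highest of the 12, and at 5.83 to 31.2 FPKM in mice without colitis.

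The goblet cell genes outside the 10 had nearly the median of all genes in colitis. Of 28 such genes, all tested, 20 had a negative and 8 a positive difference in colitis mice, at a median of -0.35 beside -0.32 over all genes. With P of at most 0.05, 6 were lower and 1 higher, where 15.9% of all genes were lower and 5.56% higher, and 0 passed the adjusted limit of limma, against 1.08%. The largest difference was that of Klk1, a tissue kallikrein, at 3577, 3510 and 1479 FPKM in normal mice 1, 3 and 4 but at 290, 1015 and 425 FPKM in colitis (log2 -2.40, SE 0.56, limma adjusted p = 0.0613). All normal mice were above all colitis mice in Klk1. The other 5 were Scin, Wfdc2, Bcas1, Ern2 and Ramp1, named after their values were seen, with differences from -1.98 to -0.85. Galnt12, an enzyme that starts O-glycosylation, was higher by 0.68 (limma adjusted p = 0.128). With a block for the mice numbered 4, 5 of the 28 passed the adjusted limit, all lower, where 9.22% of all genes passed it in either direction.

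With BBR in colitis, 22 of these 28 genes had a positive difference, at a median of 0.25 beside -0.09 over all genes. With P of at most 0.05, 4 were higher and 0 lower, where 1.19% of all genes were called higher and 5.20% lower, and 0 passed the adjusted limit of limma. Klk1 was at 2367, 1723 and 1546 FPKM in colitis mice receiving BBR 2, 3 and 4, each above all colitis mice (log2 1.88, SE 0.56, limma adjusted p = 0.512), and its interaction was 1.78 (limma adjusted p = 1.00). The largest negative difference was that of Guca2a, which codes for the peptide guanylin, at -0.93 and with P above 0.05.

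Of 31 tested enzymes that build the O-linked sugars of mucins, 7 were higher and 5 lower in colitis with P of at most 0.05, where 5.56% of all genes were higher and 15.9% lower. Their median was -0.09 beside -0.32 over all genes, and 2 passed the adjusted limit of limma, against 1.08% of all genes. Fut2, which adds the terminal fucose of mucin sugars, was at 59.3, 43.0 and 50.5 FPKM in the normal group but at 176, 192 and 188 FPKM in colitis (log2 1.87, SE 0.30, adjusted p = 0.0195). St6galnac2, a sialyltransferase, was at 21.7, 19.3 and 16.0 FPKM in the normal group but at 3.64, 4.35 and 7.99 FPKM in colitis (log2 -1.88, SE 0.39, limma adjusted p = 0.0466). In both genes the groups were fully apart. With the mouse number as a block St6galnac2 no longer passed the adjusted limit (limma adjusted p = 0.0580), and 3 enzymes did, all higher, against 4.79% of all genes. With a block for the mice numbered 4, 6 higher and 2 lower enzymes passed it, against 9.22% of all genes. The largest positive difference was that of Gcnt4, a branching enzyme, at 2.01 (limma adjusted p = 0.0811). With BBR in colitis, 0 of these enzymes were higher and 2 lower with P of at most 0.05, a share near the 5.20% of all genes that were lower. The larger of the 2 differences was that of St3gal1, another sialyltransferase, at -1.81 (limma adjusted p = 0.512).

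Ern2 also belongs to the list of protein folding and export in the endoplasmic reticulum. Of its 25 tested genes, 0 were higher and 1 lower in colitis with P of at most 0.05, where 5.56% of all genes were higher and 15.9% lower, at a median of 0.18 beside -0.32 over all genes. That 1 was Ern2, the stress sensor of mucus-producing cells, at 24.4 ± 1.47 FPKM in the normal group but at 13.2 ± 3.5 FPKM in colitis (SD, n = 3, log2 -0.91, limma adjusted p = 0.0691). With BBR in colitis, Ern2 was at 18.5 ± 4.38 FPKM, higher by 0.49 than without (limma adjusted p = 0.771). Xbp1, whose messenger RNA the Ire1 sensors splice, had the largest positive difference of the list in colitis, with P above 0.05.

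A list of 16 genes around the secretory lineage also held Notch1, Hes1, Dll1, Dll4 and the epithelium marker Elf3. Of these 16, 14 had a negative difference in colitis, at a median of -0.65 beside -0.32 over all genes. With P of at most 0.05, 3 of these were lower, where 15.9% of all genes were, and 0 passed the adjusted limit of limma. The sum of the 16 in colitis mouse 4, at 1289 FPKM, was within the 1099 to 1322 FPKM of normal mice, and in the other 2 colitis mice it was below, at 680 and 1028 FPKM. The largest difference was that of Hes1, a target of Notch signals that represses Atoh1, at 54.0, 39.2 and 43.8 FPKM in normal mice 1, 3 and 4 (log2 -1.38, limma adjusted p = 0.194). It was at 13.8 and 9.52 FPKM in colitis mice 1 and 2, and at 39.1 FPKM in colitis mouse 4, just below the lowest normal mouse. With BBR in colitis, 0 of 16 had P of at most 0.05, against 6.39% of all genes. Markers of deep crypt secretory cells, a goblet-like cell of the crypt base, were at -2.47 for Reg4 (limma adjusted p = 0.0768) in colitis, and 2 of the 3 markers were lower with P of at most 0.05, where 15.9% of all genes were. The other one, Spink1, was at 1605, 7581 and 476 FPKM in colitis mice and at 1406, 1511 and 423 FPKM in normal mice (log2 0.90, limma adjusted p = 0.622). Mucins and trefoil peptides of the stomach and airway were nearly absent, with sums of 5 genes of at most 7.75 FPKM in any mouse.

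**Figure D5:**
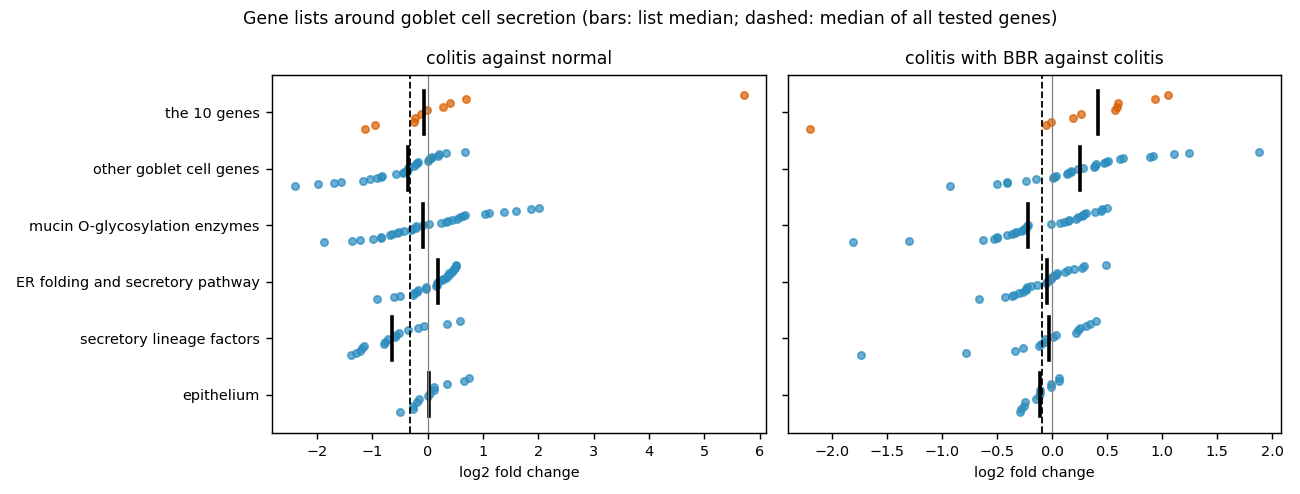
Log2 fold changes (limma, all mice) of the 10 goblet cell genes (orange) and of 5 gene lists (blue), in colitis against normal and in colitis with BBR against colitis; each point is a gene, black bars are list medians and dashed lines medians of all tested genes. The other goblet cell genes have a median of -0.35 on the left and 0.25 on the right, and the 12 epithelium markers have medians of 0.02 and -0.12.

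Since 3 of the 10 genes are transcription factors of this lineage, the promoters of the genes were searched for the short motifs of their families. The windows run from 250 bases before to 50 bases after the start site, were taken from RefSeq (GRCm38.p6), and were matched for 5 of the 10 genes, Muc2, Fcgbp, Agr2, Spdef and Atoh1. The motifs, searched on both strands, were CAGCTG and CAGATG, E-boxes bound by basic helix-loop-helix factors such as Atoh1, CAGGAT, with the core preferred by Spdef, and TGACGTG of the Creb3 family. The 4 windows that hold a match are shown, with matches in capitals. They belong to a product, a gel-bound protein, a folding enzyme and a factor of the same program. The Muc2 window lies at chr7:141690090-141690389 on the plus strand, that of Fcgbp at chr7:28070986-28071285 on the plus strand, that of Agr2 at chr12:35992675-35992974 on the plus strand and that of Spdef at chr17:27728902-27729201 on the minus strand.
Muc2: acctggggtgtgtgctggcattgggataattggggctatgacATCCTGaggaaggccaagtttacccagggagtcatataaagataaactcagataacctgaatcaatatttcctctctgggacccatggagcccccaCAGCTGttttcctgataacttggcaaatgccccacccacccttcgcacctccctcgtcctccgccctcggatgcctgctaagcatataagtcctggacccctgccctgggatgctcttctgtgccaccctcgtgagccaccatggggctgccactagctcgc
Fcgbp: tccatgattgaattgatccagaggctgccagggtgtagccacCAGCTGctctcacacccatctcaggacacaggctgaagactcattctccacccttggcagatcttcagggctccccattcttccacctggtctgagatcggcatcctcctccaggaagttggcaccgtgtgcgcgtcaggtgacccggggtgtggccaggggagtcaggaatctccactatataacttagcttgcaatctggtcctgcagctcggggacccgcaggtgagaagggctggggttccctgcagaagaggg
Agr2: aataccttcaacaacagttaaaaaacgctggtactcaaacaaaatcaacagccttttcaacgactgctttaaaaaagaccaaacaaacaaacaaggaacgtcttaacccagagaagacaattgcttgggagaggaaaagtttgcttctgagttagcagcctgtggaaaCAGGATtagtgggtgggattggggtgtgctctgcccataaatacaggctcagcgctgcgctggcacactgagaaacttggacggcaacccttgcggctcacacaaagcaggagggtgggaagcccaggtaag
Spdef: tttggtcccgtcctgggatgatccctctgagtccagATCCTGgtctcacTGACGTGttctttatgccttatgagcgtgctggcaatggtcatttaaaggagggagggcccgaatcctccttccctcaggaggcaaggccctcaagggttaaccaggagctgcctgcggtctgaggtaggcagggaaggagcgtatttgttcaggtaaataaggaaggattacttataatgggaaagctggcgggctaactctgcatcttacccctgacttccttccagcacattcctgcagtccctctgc

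In the Muc2 window CAGCTG starts 112 bases before the start site and CAGGAT, on the opposite strand as ATCCTG, 208 bases before it. CAGCTG starts 208 bases before the start site of Fcgbp, and CAGGAT 82 bases before that of Agr2. The Spdef window holds CAGGAT on the opposite strand at 214 bases and TGACGTG at 201 bases, and that of Atoh1 holds none of the 4. Of 32851 windows of the same length, 16.3% hold CAGCTG, 17.2% CAGATG, 16.2% CAGGAT and 2.0% TGACGTG. The matches are letters in a window and not measured binding.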

How the data were processed

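Rectal RNA of 12 mice was analyzed in 4 groups of 3, grouped by the sample labels, which also give the mouse numbers. Nothing states separate cages or days, so p-values measure the spread between these mice. The authors removed ribosomal RNA, filtered reads with SOAPnuke 1.5.2, aligned them with Bowtie2 2.2.5 and estimated expression with RSEM 1.2.12, and deposited 1 value per gene and mouse. The deposited values are read as FPKM from their size, which the sources used here do not state. TPM over all genes would sum to the same total in each mouse, and these columns do not. The submitters' processing notes name genome build mm9, so no coordinates of the table were used. Library kit and sequencer differ between labels and methods.

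Genes with a mean of at least 0.1 FPKM over the 12 mice (15315 of 17734) entered a limma 3.58.1 fit (R 4.3.3) as log2(FPKM + 0.1), with group means and a trend in the spread. Adjustment followed Benjamini and Hochberg, and P of at most 0.05, unadjusted, is given beside. Depth was estimated from steps of low values in 1202 genes with a single transcript, and floors of 3 reads cover counting error only. The 95% intervals of fold changes come from the limma fit and cover the spread between mice. Tables and figures were made in Python 3.11.15 with matplotlib 3.10.9, pandas 2.3.3 and SciPy 1.17.1.

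The 10 genes, the lists and the tests were chosen with earlier results of these data known. The plan named the 10 genes, the largest rise and fall and the adjusted calls of each list, and the 5 genes most like Muc2. Not all of these extremes are printed, nor are the lists of absorptive, tuft, Paneth, squamous and T cells. Adjusted calls of the lists not stated above were S100a8 and, of the Paneth cell list, Mmp7, both in colitis against normal. Other genes were named after their values were seen. Alternatives were another pseudocount, filter, scaling, spread model or set of mice, a block for the mouse number or for the mice numbered 4, and each mouse left out. In normal mice with and without BBR, the deviations of equally numbered mice from their group means correlated at 0.290, 0.109 and 0.657, and those of mice 1 and 3, unequally numbered, at 0.456 and 0.366.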

Additional observations from a re-analysis of the deposited data

How the results depend on the processing

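Over 24 alternatives, 78 of 1430 values of the 10 genes had the opposite sign, 0 of them with P of at most 0.05 in either fit. Retnlb and Atoh1 kept their direction and P of at most 0.05 in colitis against normal in all 24. In that comparison the genes past the adjusted limit of limma went from 0 to 1 in several settings. The 1 gene was Retnlb with a pseudocount of 1 (just under the limit) and with centring on epithelium markers. It was also Retnlb in a fit of the compared groups alone (adjusted p = 0.00387). In the 8 mice numbered 1 to 3 alone it was Creb3l1 (limma adjusted p = 0.0312), where 5.25% of all genes passed. The number went to 2 with a block for the mice numbered 4, where 9.22% of all genes passed, and ranged from 0 to 1 over the left-out mice. In colitis with BBR against colitis, the genes with P of at most 0.05 went from 0 to 1 with quantile normalization (Atoh1) and with a block for the mice numbered 4 (Fcgbp). They went to 2 with centring on the median (Fcgbp and Atoh1), and ranged from 0 to 2 over the left-out mice. In the main fit 6.39% of all genes had such a P, and the share under these alternatives is not given. The mice numbered 1 to 3 alone gave 1 adjusted call, Creb3l1, in colitis with BBR against normal with BBR and against normal, and P calls ranged from 0 to 4 and from 0 to 3 over the left-out mice. Centring on the median gave 4 P calls in colitis with BBR against normal, and in colitis against normal, where the median of all genes was -0.32, it moved Muc2 from 0.41 to 0.75 and Atoh1 from -0.95 to -0.62. The interaction ranged from 0 to 1 P calls over the left-out mice. Where no share of all genes is given beside a count of these alternatives, the count cannot be set against a background. The cause of these changes was not tested.

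With the replicate number as a block, 1 gene passed the adjusted limit in colitis against normal (Retnlb, log2 6.50, adjusted p = 0.0192, against 4.79% of all genes) and 1 had P of at most 0.05 in colitis with BBR against colitis (Retnlb, log2 -2.74, limma adjusted p = 0.371). Under this block Spink4 had P of at most 0.05 in colitis against normal, in colitis with BBR against normal with BBR and in colitis with BBR against normal, and Muc2 no longer did in the last (limma adjusted p = 0.253). The block left normal with BBR against normal at 0 calls. Mice of 1 number did not deviate together throughout, since the correlation was 0.078 for the mice numbered 2 and up to 0.751 for those numbered 4. The likeness to Muc2 of Sowahb, Ffar4, C3, Ttyh1 and Avpr1b was 0.69, 0.62, 0.82, 0.71 and 0.71 as Spearman rho and 0.92, 0.94, 0.89, 0.89 and 0.85 in the 8 mice numbered 1 to 3. Their ranks among 11933 genes were then 28, 65, 4, 25 and 22 by rho and 6, 4, 21, 19 and 42 in the 8 mice, so that other genes led under either choice. Depth limits Retnlb in mice without colitis, where the lowest value stood on about 7 reads.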
